A study of Mus musculus with 12 samples.

Results

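Except for Atp5sl, which matches by name only, the 74 genes described here encode subunits of the mitochondrial respiratory chain and ATP synthase from the nucleus. They are the rows of the 49585-gene table whose symbols begin with Nduf (letters a, b, c, s or v and a digit), Sdha to Sdhd, Uqcr, Cox4 to Cox8 or Atp5, and whose mean was at least 5 TPM over the 24 h libraries 1 and 2 without Mdivi-1. TPM is a gene's share of the transcripts in a library, out of 1000000, corrected for transcript length. After 6 processed-pseudogene names were dropped, 84 rows matched by name and 74 passed the floor of 5 TPM. By symbol, 34 belong to complex I, 4 to complex II, 8 to complex III, 12 to complex IV and 16 to complex V. Ndufa4, named for complex I but now known as a complex IV subunit, is counted with complex IV.

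RNA was sequenced from RAW264.7, an established mouse macrophage-like line. All 12 libraries came from cells given 10 ng/mL LPS, a bacterial Toll-like receptor agonist, with 10 ng/mL mouse IFN-γ, a macrophage-activating cytokine, so no unstimulated cells are compared here. In 6 of the 12, 50 µM Mdivi-1 was present from the same time point. Mdivi-1 was described as an inhibitor of Drp1, the GTPase that constricts dividing mitochondria, and inhibition of complex I by the compound has also been reported. Cells were taken at 24 h or 96 h, giving 4 groups of 3 libraries, and nothing in the labels says that the libraries of a group were separate cultures.

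Complexes I to IV pass electrons from NADH and succinate to oxygen and pump protons out of the mitochondrial matrix, except complex II, which pumps none. Complex V, the ATP synthase, uses the proton gradient to make ATP. Most subunits are made from nuclear genes and imported, while a small core is encoded in mitochondrial DNA, so the 2 genomes have to supply matching parts. In macrophages activated by LPS and IFN-γ, respiration is known to fall while glycolysis rises, and succinate dehydrogenase (complex II) is known as a source of inflammatory signals.

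Many promoters of these genes share sites for a few transcription factors, NRF1 first among them. A RefSeq promoter (GRCm38.p6) was at hand for 61 of the 74 genes, and the 250 bases before the start site were searched on both strands in these and in all 27025 promoters. The complete palindromic NRF1 site, GCGCATGCGC, was in 4 of the 61 (6.557%) and in 0.7808% of all promoters. The shorter NRF1 core GCATGCGC, which every complete site also contains, was in 8 (13.11%, against 2.316%). The ETS site CTTCCGG, bound by the GABP factors, was in 11 (18.03%, against 7.053%). CCAAT was in 25 (40.98%, against 34.46%), GGGCGG in 21 (34.43%, against 32.94%), and the YY1 motif AAGATGGC in 0 (against 1.587%). These matches are letters in a window and are no evidence of binding in these cells.

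The 4 stretches with a complete NRF1 site are shown because their genes come from complexes I, IV and V and reappear among the results. Each runs 5′ to 3′ on the gene's own strand, upstream of the RefSeq start, with the NRF1 site in capitals.
Atp5g2 (chr15:102671048-102671129, minus strand, site 42 bases before the start): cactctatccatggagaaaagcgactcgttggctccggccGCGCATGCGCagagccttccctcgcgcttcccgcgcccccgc
Atp5k (chr5:108434400-108434489, minus strand, site 50 bases before the start): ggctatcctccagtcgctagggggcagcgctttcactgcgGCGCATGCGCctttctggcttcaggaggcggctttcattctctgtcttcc
Cox6a1 (chr5:115349071-115349160, minus strand, site 162 bases before the start): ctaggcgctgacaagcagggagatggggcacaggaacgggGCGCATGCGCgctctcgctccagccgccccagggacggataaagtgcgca
Ndufa11 (chr17:56717662-56717751, plus strand, site 60 bases before the start): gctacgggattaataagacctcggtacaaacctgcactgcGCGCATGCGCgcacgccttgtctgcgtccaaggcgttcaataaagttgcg

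The libraries differed in composition before any comparison. Both 24 h libraries numbered 3 stood apart: mitochondrial ribosomal RNA took 91.6% of TPM without Mdivi-1 and 90.8% with it, against 3.37% to 4.56% in the other 24 h libraries and 53.1% to 74.2% at 96 h. In the 24 h libraries numbered 3 no gene of the 74 exceeded 4.45 TPM, and the sum over all 74 was 60.7 TPM without and 47.4 TPM with Mdivi-1, so results below come from the other 10 libraries, with the fit of all 12 beside them where it differs. Olfactory and related receptor genes, most of which macrophages are not known to express, were at a median of 0.495 to 2.68 TPM at 96 h, and their median was 0 TPM in each 24 h library numbered 1 or 2. The 9 macrophage markers in the table, such as Lyz2 and Cd68, summed to 16988 to 19347 TPM in these 24 h libraries and to 253 to 391 TPM at 96 h, with none at 0. Markers of epithelial, endothelial, lymphoid, erythroid and muscle cells summed to between 0 and 6.03 TPM per list in the 10 libraries. Fibroblast markers summed to 275 and 300 TPM at 24 h without Mdivi-1, to 78.7 and 57.4 TPM with it, and to 2.88 to 12.01 TPM at 96 h. In bulk RNA, fewer cells of a type and less RNA per cell cannot be told apart.

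At 24 h without Mdivi-1 most of the respiratory chain genes were strongly expressed, with means from 5.52 to 301 TPM. Their median was 62.8 TPM, and 18 of 74 exceeded 100 TPM. Libraries 1 and 2 differed by a median of 3.69% per gene, with the widest gap, 21.04%, in Ndufa7. Because the floor of 5 TPM was set in these libraries, the levels are a description.

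Complex IV, cytochrome c oxidase, held the most abundant members. Cox6b1 (ENSMUSG00000036751), a subunit on the intermembrane-space side, measured 304 and 299 TPM. Cox8a (ENSMUSG00000035885), a small membrane subunit, measured 307 and 287 TPM, and Cox6a1 (ENSMUSG00000041697) 244 and 248 TPM. Cox6c was the lowest of the 12, at 28.1 and 27.3 TPM. Mean levels in the complex thus ran from 27.7 to 301 TPM.

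Complex V came next in single-gene levels. Its catalytic β subunit Atp5b measured 203 and 189 TPM and the membrane-part subunit g, Atp5l, 187 and 196 TPM. Atp5l shares 85.4% of its 31-base words with another gene (mostly the pseudogene-like Gm10221), so its level is uncertain, as are those of Atp5h and Atp5g2, which share most of their words with Gm10250 and with Gm10175 and Gm10231. The lowest was Atp5sl, at 5.35 and 5.69 TPM. Atp5sl matches by name only: it is now called Dmac2 and is known as a complex I assembly factor. It was also the member just inside the floor of 5 TPM, while Ndufb2 (3.83 TPM) and Cox6a2 (2.80 TPM) were just outside.

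In complex I, the accessory subunits Ndufb9 (132 and 136 TPM) and Ndufa2 (118 and 129 TPM) led, and Ndufb7 (16.4 and 16.6 TPM) was lowest. In complex III, Uqcr10 (126 and 120 TPM) and Uqcr11 (96.9 and 103 TPM), both small membrane subunits, led, and the core protein Uqcrc1 (39.5 and 38.5 TPM) was lowest. Within complex II, the membrane anchor Sdhd measured 118 and 120 TPM, the iron-sulfur subunit Sdhb 89.9 and 86.1 TPM, the flavoprotein Sdha 64.8 and 64.1 TPM and the other anchor, Sdhc, 30.4 and 33.4 TPM. The order of the 4 was the same in both libraries, although the assembled enzyme holds 1 copy of each.

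For subunits with tissue-specific paralogs, the widely expressed form made up nearly all of the family. Cox4i1 held 99.9% and 100% of the Cox4 sum at 24 h without Mdivi-1, Cox6b1 99.96% and 100% of Cox6b, Cox6a1 98.7% and 99.0% of Cox6a, and Cox8a 100% of Cox8. The heart and muscle forms Cox6a2 and Cox7a1, the lung form Cox4i2 and the testis forms Cox6b2, Cox7b2 and Cox8c were all under the floor, as were Cox8b, Ndufa4l2 and Atp5s. The 3 genes for the c subunit of the ATP synthase ring, Atp5g1, Atp5g2 and Atp5g3, which are known to encode the same mature protein, held 12.8%, 51.5% and 35.7% of their sum on average.

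**Figure D1:**
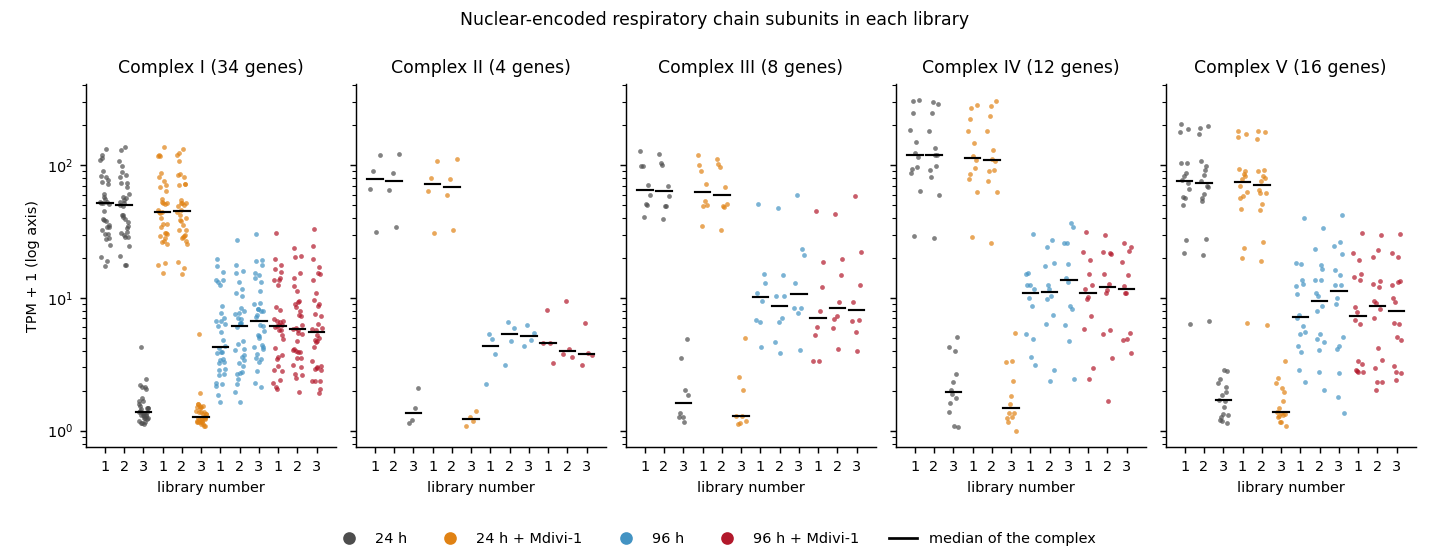
Each point is 1 gene in 1 library, as TPM + 1 on a log axis, with 1 panel per complex and the median of the complex as a bar. The 24 h libraries 1 and 2 lie highest with and without Mdivi-1, the 24 h libraries numbered 3 lie near the bottom, where no gene passes 4.45 TPM, and the 96 h libraries lie between.

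With Mdivi-1 for 24 h, respiratory chain transcripts stayed close to their level without it. Summed over the 74 genes, libraries 1 and 2 held 5898 and 5838 TPM without Mdivi-1 and 5558 and 5557 TPM with it, which is 94.7% of the mean without. By complex the sum with Mdivi-1 was 96.5% of that without for complex I, 91.4% for II, 94.99% for III, 94.9% for IV and 92.6% for V. Gene by gene the ratio ran from 83.2% to 114%, and 60 of the 74 were within 10%.

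None of the 74 passed limma's test at 24 h (adjusted p under 0.05), and 0 had an unadjusted p under 0.05. Over all genes, 0.295% passed (58 of 19631, all lower with Mdivi-1). The largest falls on the log2 scale were in complex III. Uqcrc1 measured 39.5 and 38.5 TPM without and 33.6 and 31.3 TPM with Mdivi-1, a difference of -0.26 ± 0.16 (SE, limma adjusted p = 1) with a 95% interval from -0.61 to 0.09. Uqcrq, which helps form the ubiquinone-binding region, measured 58.3 and 57.7 TPM without and 48.9 and 50.2 TPM with (-0.22 ± 0.26, limma adjusted p = 1). In both genes the groups did not overlap, and both libraries with Mdivi-1 were the lower.

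The largest rises were as small. Atp5k, the e subunit, whose promoter holds the complete NRF1 site, measured 72.3 and 69.2 TPM without and 82.1 and 78.8 TPM with Mdivi-1 (0.18 ± 0.20, limma adjusted p = 1). Ndufa1, a small subunit needed for complex I assembly, measured 108 and 106 TPM without and 116 and 118 TPM with (0.12 ± 0.33, limma adjusted p = 1). Over the 74 genes the outermost bounds of the 95% intervals were -1.23 and 1.102, so the fit leaves room for changes of 2-fold in its least precise gene.

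Counting libraries only, 41 of the 74 were lower in both libraries with Mdivi-1, where 40.4% of all genes and 70.3% of genes of at least 5 TPM were. Atp5k, Ndufa1 and Ndufv3 were higher in both (3 genes, against 2.94% of all genes and 3.86% of genes of at least 5 TPM). The median difference of the 74 was -0.09, and that of the 7821 genes of at least 5 TPM was -0.21. Small structured RNAs took 49.6% and 53.1% of TPM with Mdivi-1 and 46.7% and 46.4% without. When the values were rescaled to a sum of 1000000 over nuclear genes other than structured and satellite-like RNA, the median of the 74 was 0.09, above 0, and that of the expressed genes -0.03, and 0 of the 74 passed. With the 24 h libraries fitted alone, 2424 of 11105 genes passed (21.8%), but 0 of the 74 did, while 7 had an unadjusted p under 0.05. Uqcrc1 then had the lowest adjusted p of the 74, at 0.0593.

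Among the genes that did fall with Mdivi-1 at 24 h were 3 of 6 fibroblast markers tested, the collagen genes Col1a1, Col1a2 and Col3a1. Their part in the values of the 74 was not tested.

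**Figure D2:**
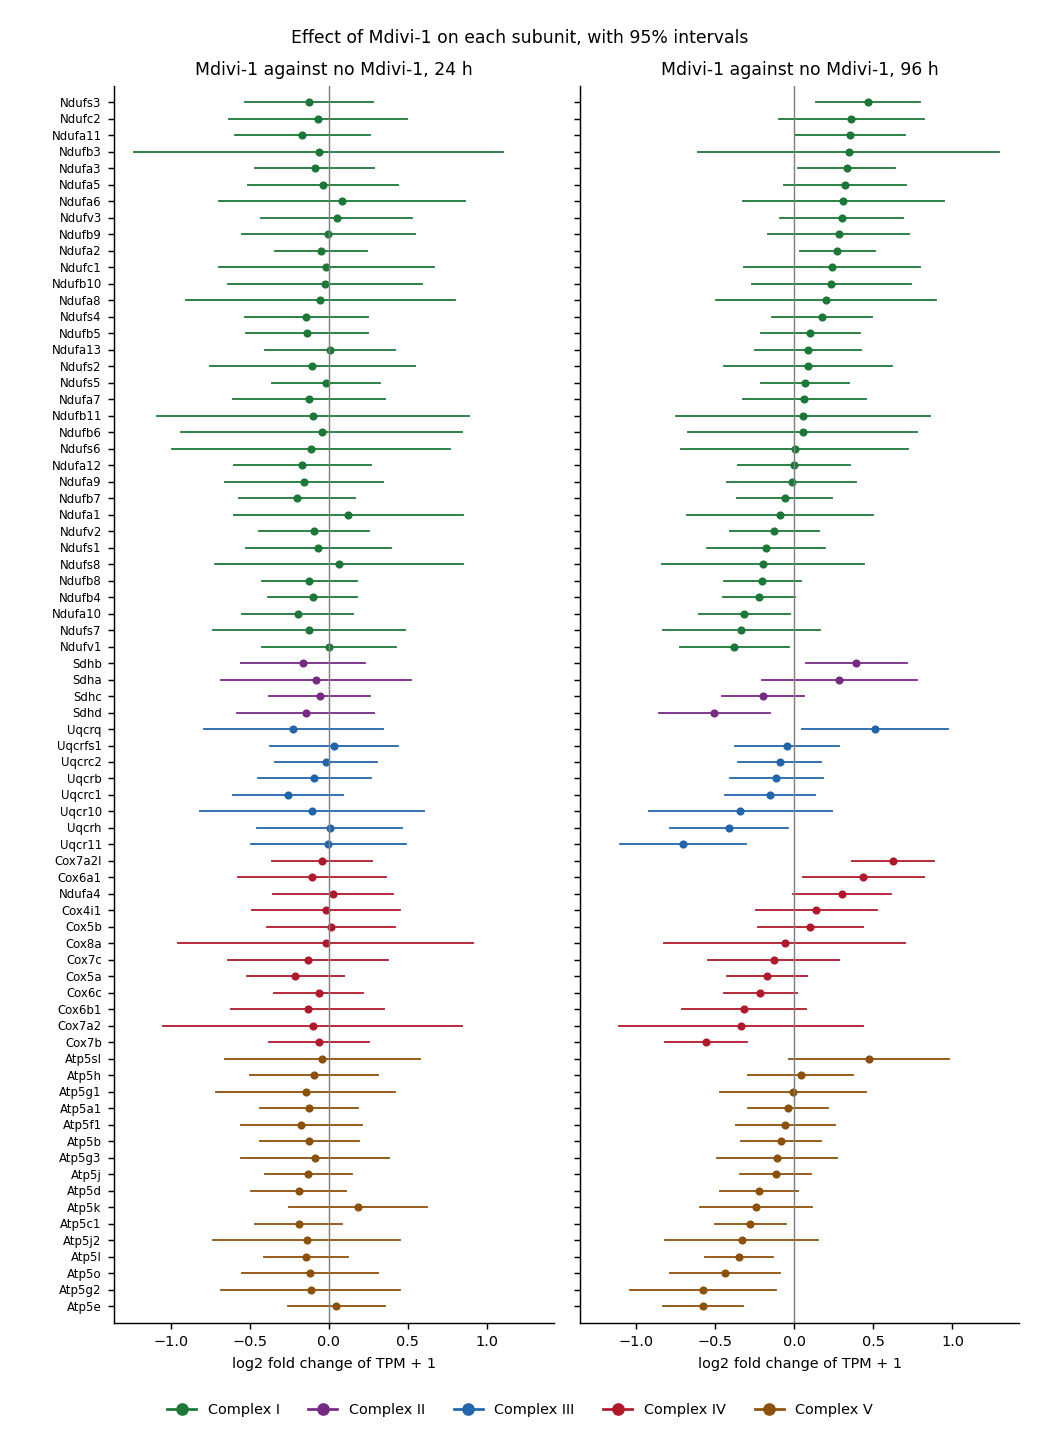
Points are log2 fold changes of TPM + 1 with Mdivi-1 against without, at 24 h on the left and 96 h on the right, with unadjusted 95% intervals from limma over 10 libraries, ordered by complex and by the 96 h value. At 24 h all points lie between -0.26 and 0.18, while at 96 h they run from -0.70 to 0.62. No gene passed after adjustment over all genes at either time.

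At 96 h the respiratory chain genes were low in both groups, and single subunits of the same complex differed in opposite directions with Mdivi-1, none of them called. Over the 74 genes the libraries held sums of 584, 627 and 793 TPM when Mdivi-1 was absent and 638, 641 and 667 TPM when it was present. The 3 libraries with Mdivi-1 lay inside the range of the 3 without. Complex V summed to 155, 164 and 193 TPM without and to 147, 147 and 149 TPM with Mdivi-1, so here every library with Mdivi-1 lay lower. On the rescaled values the complex V groups overlapped, at 1366, 1599 and 2759 without and 1753, 1635 and 1565 with Mdivi-1. Complex I summed to 187, 210 and 258 TPM without and to 242, 225 and 240 TPM with, and the groups overlapped.

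None of the 74 passed limma's test at 96 h, although 19 had an unadjusted p under 0.05. Over all genes 0.143% passed (28 of 19631). The differences ran from -0.70 to 0.62, and 42 of the 74 stayed within 20% of the level without Mdivi-1. In complex V 14 of the 16 genes lay below 0, and 22 of the 34 complex I genes lay above 0. Atp5sl, counted with complex V by name only, lay at 0.47. The median of the 74 was -0.05, and that of the 7821 expressed genes -0.07. With the 96 h libraries fitted alone, 0 of 23458 genes passed, and 4 of the 74 had an unadjusted p under 0.05. Standard errors of the 74 then ran from 0.17 to 0.55, against 0.098 to 0.43 in the fit of 10 libraries.

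Cox7a2l had the lowest adjusted p of the 74. Cox7a2l (ENSMUSG00000024248), also called SCAF1, is known to join complexes III and IV in supercomplexes. It measured 7.62, 9.39 and 7.75 TPM without Mdivi-1 and 14.3, 11.6 and 13.9 TPM with it. All 3 libraries with Mdivi-1 were higher than all 3 without. The difference was 0.62 ± 0.12 on the log2 scale (limma adjusted p = 0.0972), or 161% of the mean without Mdivi-1 in TPM. With the 96 h libraries fitted alone, the standard error of Cox7a2l was 0.20 (limma adjusted p = 0.9999). Uqcrq (ENSMUSG00000044894) had the second-largest rise, at 11.9, 9.41 and 19.9 TPM without and 17.6, 18.6 and 21.4 TPM with Mdivi-1 (0.51 ± 0.21, limma adjusted p = 0.774). Its library 3 without Mdivi-1 overlapped the other group.

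On the lower side, Uqcr11 (ENSMUSG00000020163), a small complex III subunit, measured 9.85, 9.41 and 11.96 TPM without and 4.25, 5.95 and 8.28 TPM with Mdivi-1 (-0.70 ± 0.18, limma adjusted p = 0.322). The groups did not overlap. Atp5e (ENSMUSG00000016252), the ε subunit of the ATP synthase rotor stalk, measured 3.32, 3.93 and 3.14 TPM without and 1.86, 1.99 and 2.08 TPM with (-0.58 ± 0.11, limma adjusted p = 0.112). All 3 libraries with Mdivi-1 lay below all 3 without, and the 3 were close to each other. When only genes with a mean of at least 5 TPM were fitted, Atp5e passed (limma adjusted p = 0.0411). Its 96 h values all lay under that floor, so it entered that fit through its 24 h level. The share of all genes that passed in that fit is not given. Receptor-gene medians at 96 h were 2.68, 2.08 and 0.495 TPM without and 1.25, 1.35 and 1.82 TPM with Mdivi-1. Atp5e lay under the 95th percentile of the receptor genes in all 3 libraries with Mdivi-1. Without Mdivi-1 it lay under that percentile in libraries 1 and 2 and above it in library 3.

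Other genes chosen after their values were seen showed the same kind of separation. Cox7b, a small complex IV subunit, measured 29.2, 26.3 and 35.5 TPM without and 18.2, 20.7 and 21.6 TPM with Mdivi-1 (-0.56 ± 0.12, limma adjusted p = 0.151). Sdhd measured 2.76, 4.90 and 4.48 TPM without and 2.22, 2.58 and 2.69 TPM with (-0.51 ± 0.16, limma adjusted p = 0.518). The groups did not overlap in either gene, though library 1 without Mdivi-1 came close in Sdhd. Its partner subunit Sdhb measured 4.34, 5.58 and 5.27 TPM without and 7.07, 8.52 and 5.48 TPM with Mdivi-1, and these groups overlapped.

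By non-overlap alone, 11 of the 74 were lower in all 3 libraries with Mdivi-1, against 4.05% of all genes and 8.48% of genes of at least 5 TPM. They were Atp5c1, Atp5e, Atp5l, Cox6c, Cox7b, Ndufb4, Ndufv1, Sdhc, Sdhd, Uqcr11 and Uqcrh. Cox7a2l, Ndufa3, Ndufa11 and Ndufs3 were higher (4 genes, against 2.13% and 3.54%). Ndufa11, whose promoter holds the complete NRF1 site, measured 1.28, 0.971 and 1.27 TPM without and 1.84, 2.15 and 1.37 TPM with Mdivi-1, close to the receptor-gene medians of these libraries.

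The count of genes called at 96 h, 0 in the fit of 10 libraries, depended on single libraries of the group without Mdivi-1. Leaving out library 3 of that group, 5 of the 74 passed: Cox7a2l and Uqcrq were higher with Mdivi-1, and Atp5e, Atp5g2 and Cox7b lower. Leaving out library 1, Sdhd alone passed. No share over all genes is given for these fits, so the counts have nothing to be set against. Library 3 without Mdivi-1 had the largest share of mitochondrial ribosomal RNA at 96 h (74.2%) and the lowest median of receptor genes (0.495 TPM, against 2.68 and 2.08 TPM in libraries 1 and 2). The part of these differences in the results was not tested.

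**Figure D3:**
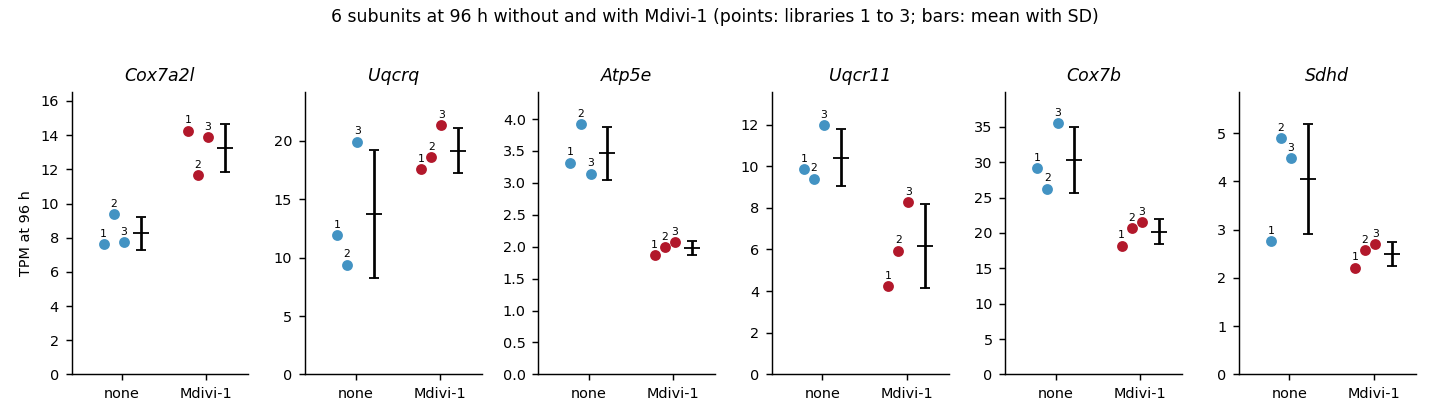
TPM at 96 h of 6 subunits in each library without (blue) and with (red) Mdivi-1, numbered 1 to 3, with the mean and SD as a bar. Cox7a2l lies higher in all 3 libraries with Mdivi-1, Atp5e, Uqcr11, Cox7b and Sdhd lie lower in all 3, and Uqcrq overlaps through library 3.

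The Mdivi-1 effect at 96 h minus that at 24 h passed limma's test in 0 of the 74 genes, with 7 at an unadjusted p under 0.05, and in 0.122% of all genes (24 of 19631). Cox7a2l had a difference of 0.67 ± 0.18 (limma adjusted p = 0.425), having measured 149 and 135 TPM without and 145 and 129 TPM with Mdivi-1 at 24 h, where the groups overlapped. Uqcrq had 0.73 ± 0.33, Atp5e -0.63 ± 0.18 (limma adjusted p = 0.485) and Uqcr11 -0.70 ± 0.29. The limma adjusted p of Uqcrq and Uqcr11 was 0.99998. For these genes a separate response at 96 h was not shown.

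Between 24 h and 96 h the respiratory chain genes differed far more than between cells with and without Mdivi-1. All 74 passed limma's test as lower at 96 h without Mdivi-1, and all 74 with it. Over all genes 46.9% passed as lower without Mdivi-1 and 44.0% with it, and among genes of at least 5 TPM at 24 h 97.9% and 95.7%. Nothing particular to the 74 can be read from the count, because the floor was set in the 24 h libraries. With all 12 libraries, 0 of the 74 passed either comparison, with 0 at an unadjusted p under 0.05. Standard errors of the 74 then ran from 0.78 to 2.56, against 0.11 to 0.48 in the fit of 10 libraries.

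The size of the fall differed between complexes. Complex II fell most: its sum was 304 TPM in both 24 h libraries and 12.2, 16.3 and 16.9 TPM at 96 h without Mdivi-1, 20.05-fold lower in the means. Complex IV fell 11.9-fold, complex I 8.45-fold, complex V 8.003-fold and complex III 5.10-fold. With Mdivi-1 the folds were 17.8, 11.6, 7.55, 8.59 and 5.29 in the same order, and the order of complexes I and V was exchanged. No test of the difference between complexes was made.

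Per gene, a median of 9.79% of the 24 h TPM was left at 96 h without Mdivi-1 and 10.4% with it. Cox7a2 (ENSMUSG00000032330), the common form of a small complex IV subunit, had the least left, at 122 and 119 TPM at 24 h and 2.57, 1.37 and 3.74 TPM at 96 h (-5.15 ± 0.39, limma adjusted p = 6.07e-07), or 2.12%. Ndufa1 went from 108 and 106 TPM to 1.16, 3.08 and 3.29 TPM (-5.01 ± 0.30, limma adjusted p = 9.75e-08). In both genes every 96 h library lay far below both 24 h libraries. Cox7a2 was at or under the receptor-gene median in 96 h libraries 1 and 2, and Ndufa1 in library 1, so the percentages left are uncertain. In all, 13 of the 74 kept under 5%, among them Sdhd, Sdha, Cox6b1, Uqcr10 and Ndufa4.

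Among the 74, the lowest adjusted p-values in each time comparison belonged to the genes that follow. Cox5a, a matrix-side subunit of complex IV, went from 85.8 and 91.2 TPM to 4.39, 5.33 and 5.25 TPM (-3.90 ± 0.13, limma adjusted p = 1.92e-09). Cox7a2l fell by 3.95 ± 0.13 on the log2 scale without Mdivi-1, Atp5b by 3.82 ± 0.13, Ndufa3 by 4.48 ± 0.15, Atp5e by 3.68 ± 0.13 and Ndufa4 by 4.47 ± 0.16. With Mdivi-1, Atp5e fell by 4.31 ± 0.13, the lowest adjusted p of the 74 in that comparison (limma adjusted p = 1.35e-09). Cox5a, Atp5b, the γ subunit Atp5c1, the core protein Uqcrc2 and Sdhd followed, with falls of 3.86, 3.78, 3.30, 3.70 and 4.96 on the log2 scale.

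At the other end, 4 genes kept at least 40% of their 24 h level. Uqcrb (ENSMUSG00000021520), a ubiquinone-binding protein of complex III, went from 97.2 and 99.8 TPM to 50.4, 46.2 and 59.0 TPM (-0.92 ± 0.15, limma adjusted p = 2.45e-04), or 52.7%. Atp5j, coupling factor F6 of the ATP synthase, went from 26.2 and 26.7 TPM to 12.7, 12.7 and 13.9 TPM, or 49.5%. Ndufs4, an accessory subunit needed for a stable complex I, went from 29.4 and 32.4 TPM to 12.7, 10.7 and 16.6 TPM, or 43.0%. Cox6c kept 41.7%, at 11.6, 10.7 and 12.3 TPM. In each, all 96 h libraries still lay below both 24 h libraries. With Mdivi-1 the same 4 kept 52.0%, 49.7%, 53.6% and 37.0%. The first coding transcript of Uqcrb shares 58.2% of its 31-base words with other genes, that of Cox6c 28.1%, that of Atp5j 23.2% and that of Ndufs4 none.

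Whether a subunit fell depended on what the values were a share of. After the same rescaling, which leaves out structured, mitochondrial and satellite-like RNA, the 74 summed to 12352 and 12053 at 24 h and to 5157, 6098 and 11322 at 96 h without Mdivi-1. With it they summed to 12580 and 13828 and to 7625, 7151 and 7019. On this scale 41 of the 74 passed as lower at 96 h and 4 as higher, both without and with Mdivi-1. Of genes of at least 5 TPM, 37.5% passed as lower and 9.13% as higher without Mdivi-1, and 37.3% and 11.6% with it. The 4 higher genes in both comparisons were Uqcrb, Atp5j, Ndufs4 and Cox6c, each called lower in deposited TPM. The median of the 74 was -0.95 without Mdivi-1, and that of the expressed genes -0.43. In deposited TPM the medians were -3.16 and -2.33. Median-of-ratios scaling gave 46 lower and 7 higher without Mdivi-1, against 33.6% and 10.5% of genes of at least 5 TPM, and 50 and 7 with it, against 34.4% and 11.5%.

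By complex, the rescaled median was -1.997 for II, -1.65 for IV, -0.98 for V, -0.74 for I and -0.34 for III without Mdivi-1. In deposited TPM the medians ran in the same order, at -4.14, -3.92, -3.18, -2.93 and -2.56. All 4 Sdh genes passed as lower on both scales. The rescaled complex III sum was 1218 ± 16.3 at 24 h (SD, n = 2) and 1294 ± 585 at 96 h (SD, n = 3), a difference within the spread at 96 h. The 96 h library 3 without Mdivi-1 was the high one in each complex, and its sum over the 74 came close to the 24 h values.

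A share of the 96 h signal lay at the level of the receptor genes, most of which macrophages are not known to express. Of the 74, 18, 12 and 1 were at or under the receptor-gene median in 96 h libraries 1, 2 and 3 without Mdivi-1, and 2, 5 and 8 with it. In the 24 h libraries 1 and 2, none was. When that median was subtracted before rescaling, with a pseudocount and floor of 10 in place of a pseudocount of 5, 73 of the 74 were tested, and 31 were lower and 12 higher without Mdivi-1, against 42.8% and 10.8% of genes of at least 5 TPM, and 30 and 10 with it, against 41.1% and 11.9%. The median of the 74 was then -0.77 and that of the 5891 expressed genes tested -0.99. Of the Sdh genes, Sdhc did not pass without Mdivi-1 (limma adjusted p = 0.0956) and Sdhb did not pass with it (limma adjusted p = 0.0686). Subtraction, pseudocount and floor were changed together here, and their separate parts were not tested. Values of genes near 1 TPM at 96 h, such as Atp5sl, Ndufa7 and Atp5g1, are therefore weakly measured. The 95th percentile of the receptor genes was 1.47 to 7.31 TPM over the 96 h libraries. At or under it were 46, 36 and 5 of the 74 without Mdivi-1 and 21, 26 and 33 with it. Atp5e, Sdhd and Cox5a were so in libraries 1 and 2 without Mdivi-1, but not in library 3. Atp5e and Sdhd were so in all 3 libraries with it. The 96 h values of these genes are uncertain as well.

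**Figure D4:**
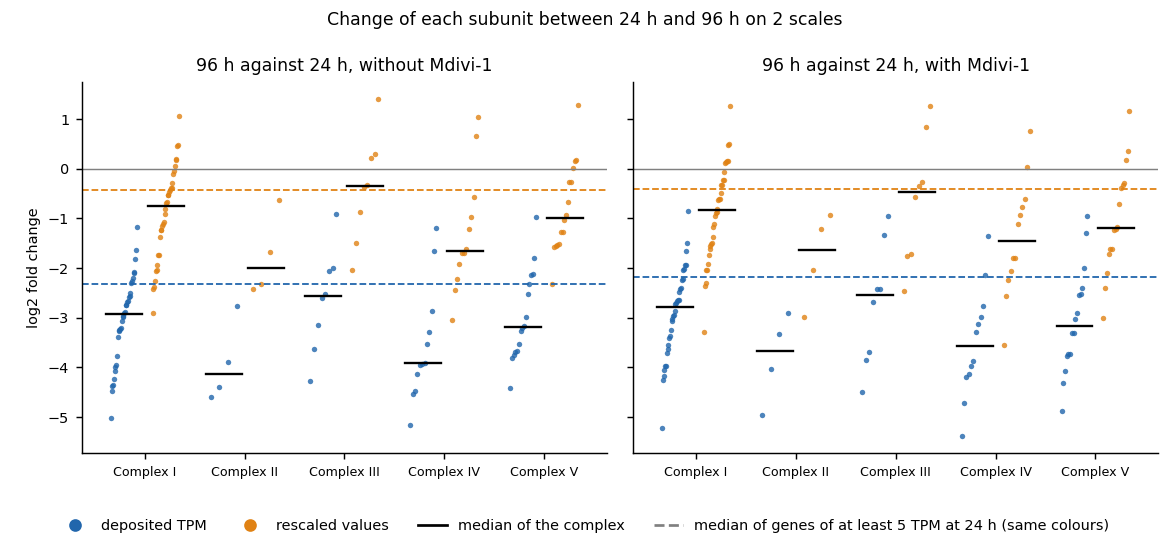
Points are log2 fold changes at 96 h against 24 h for each gene, by complex, in deposited TPM (blue) and rescaled values (orange), with the median of each complex as a bar. Dashed lines are medians of genes of at least 5 TPM at 24 h, at -2.33 and -0.43 without Mdivi-1. All blue points lie below 0, and 15 orange points lie above 0 without Mdivi-1 and 14 with it, of which the 4 called are Uqcrb, Atp5j, Ndufs4 and Cox6c.

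Paralogs of 1 subunit did not fall in step. Cox7a2 held 44.9% and 46.6% of the Cox7a family at 24 h without Mdivi-1 and 25.2%, 11.1% and 32.5% at 96 h. With Mdivi-1 it held 44.2% and 45.6% at 24 h and 9.19%, 5.47% and 21.8% at 96 h. The share was lower in every 96 h library, and most of the rest was Cox7a2l. Cox7a2 was at or under the receptor-gene median in 96 h libraries 1 and 2 without Mdivi-1 and in library 2 with it. Its share at 96 h is therefore uncertain. Among the c-subunit genes, Atp5g2 held 51.8% and 51.1% at 24 h without Mdivi-1 and 47.7%, 33.6% and 29.5% at 96 h, and 29.9%, 23.8% and 24.4% with Mdivi-1. Since Atp5g2 has near-identical copies in other rows, its share is uncertain, and it measured only 1.74 to 4.35 TPM at 96 h without Mdivi-1. Cox7b2, the testis form of Cox7b, was listed at 0 in 24 h libraries 1 and 2 of both groups and at 3.58, 9.54 and 0.566 TPM at 96 h without Mdivi-1. The receptor-gene medians of these 96 h libraries were 2.68, 2.08 and 0.495 TPM.

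**Figure D5:**
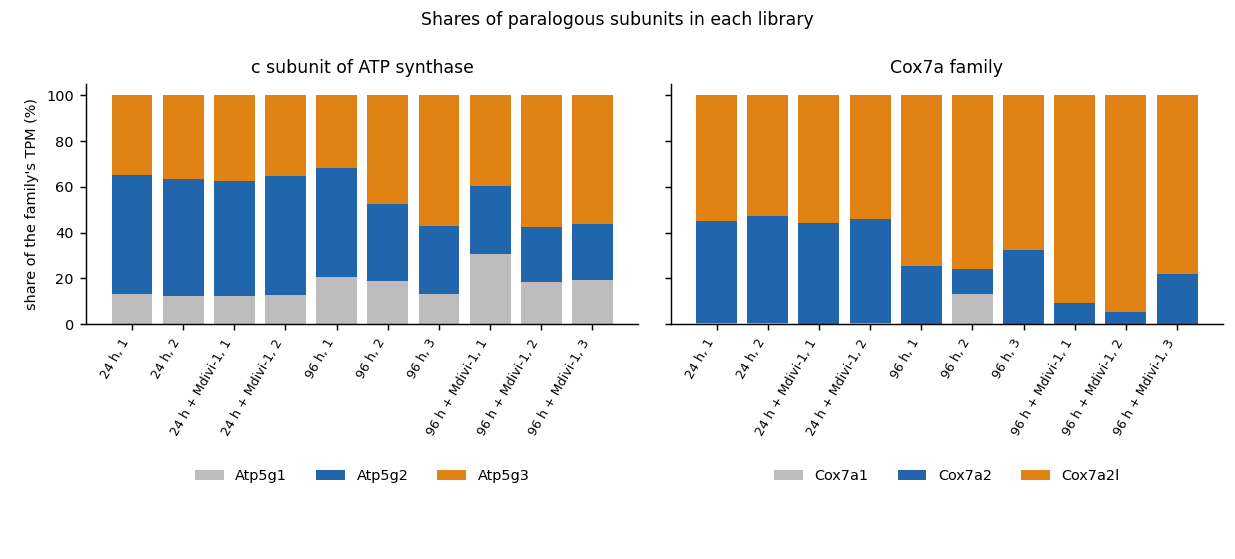
Stacked bars give the share, in percent of the family's TPM, of each c-subunit gene (left) and each Cox7a gene (right) in the 10 libraries. The Cox7a2 share is 44.2% to 46.6% at 24 h and 5.47% to 32.5% at 96 h, and the Atp5g2 share falls below its 24 h level in each 96 h library.

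Other genes of the pathway were compared from lists. Of 48 assembly factors tested, which help build the complexes, 44 fell between 24 h and 96 h without Mdivi-1, where 46.9% of all genes and 97.9% of genes of at least 5 TPM did. Their median was -1.82, against -3.16 for the 74 subunits and -2.33 for expressed genes. Coa3, a cytochrome oxidase assembly factor, averaged 55.0 TPM at 24 h and 1.64 TPM at 96 h. Cox17, a copper carrier for the same enzyme, averaged 13.1 and 11.5 TPM and did not pass. On the rescaled values the assembly factors had a median of 0.00, with 9 lower and 6 higher, so the direction of the list depends on the scale. Among 11 regulators tested, 9 fell, against the same shares of genes, including Esrra, an orphan receptor driving mitochondrial genes, at 20.5 and 3.66 TPM on average. On the rescaled values 5 of the regulators passed as higher without Mdivi-1 and 0 as lower. Over all genes 17099 of 34695 passed as higher and 2942 as lower on that scale. Of genes of at least 5 TPM at 24 h, 9.13% passed as higher and 37.5% as lower. How these list counts read thus depends on the genes they are set against, and the lists were not tested as sets. No assembly factor or regulator passed for Mdivi-1 at either time.

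Of 7 further nuclear genes, the subunits Cyc1, Ndufab1 and Usmg5, the carrier Cycs and the factors Higd1a and Higd2a fell with time, while Atpif1 did not pass. Cyc1, the cytochrome of complex III that the name pattern misses, averaged 82.7 TPM at 24 h and 3.77 TPM at 96 h without Mdivi-1. Atpif1, the inhibitor of ATP synthase, averaged 81.0 and 85.8 TPM. On the rescaled values 3 of the 7 passed as higher and 3 as lower.

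The 13 subunits encoded in mitochondrial DNA moved the other way in deposited TPM. They summed to 18228 and 17922 TPM at 24 h and to 53841, 64117 and 65366 TPM at 96 h without Mdivi-1, and every 96 h library was higher. All 13 passed as higher without Mdivi-1 (median 1.41), against 36.3% of all genes, and 10 of 13 with it, against 35.3%. With median-of-ratios scaling all 13 were higher in both comparisons. The largest, mt-Co1, a catalytic core subunit of complex IV, averaged 5066 TPM at 24 h and 20401 TPM at 96 h. Complex II has no such subunit. The mitochondrial ribosomal RNA rose with them, from 3.37% and 3.69% of TPM to 53.1% to 74.2%, and its part in this result was not tested. With Mdivi-1, 0 of the 13 passed at 24 h or at 96 h.

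Across the 74 genes, the log2 change with time without Mdivi-1 had a Spearman correlation of -0.41 with the log2 level at 24 h. The 24 h level enters both quantities, so this value has no plain reading. The correlation was 0.19 with transcript length and 0.06 with the share of words found in other genes. Genes of the same libraries are not independent, so no p is given. The genes with a complete NRF1 site in the promoter kept 3.69% (Atp5g2), 22.4% (Atp5k), 8.54% (Cox6a1) and 6.03% (Ndufa11) of their 24 h TPM without Mdivi-1, on both sides of the median of 9.79%.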

How the data were processed

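RNA from 12 libraries of RAW264.7 cells, in 4 groups of 3, was analysed from 1 deposited table of TPM values for 49585 genes. Per the labels, the cells grew in DMEM with 10% FBS, and 100 ng of total RNA entered each directional library after ribosomal RNA depletion. The authors' TPM columns each sum to 1000000, so sequencing depth is unknown and no counting error is given. The submitters' processing notes name the build hg19, while the identifiers are mouse Ensembl identifiers. For the aligner, counting software and annotation, the entry is: not given in the sources used here.

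Members, gene lists, libraries fitted and alternatives were chosen with earlier results of these data known. Genes with a mean of at least 1 TPM in the 10 libraries fitted (19631 genes) were tested as log2(TPM + 1) with limma's trend option (version 3.58.1 under R 4.3.3). The model had 4 groups and 6 residual degrees of freedom. Fold changes are on that scale, which understates changes of low genes. P-values were adjusted by Benjamini-Hochberg over all genes tested in each of 5 comparisons and called under 0.05. They measure only the spread between these libraries, which may be technical. The script was tested on simulated data. Within each complex the 2 highest and the lowest gene at 24 h were named, and in each comparison up to 6 called genes by adjusted p and the 2 largest differences each way, beside all Sdh genes, paralog families and genes next to the floor.

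Rescaled values leave out small structured, mitochondrial and satellite-like RNA, with a pseudocount of 5. Words of 31 bases came from GENCODE M21 transcripts. Alternatives were other pseudocounts (0.1 and 5), a floor of 5 TPM or none, median-of-ratios scaling, rescaling, background subtraction, all 12 libraries, 1 time point alone, a replicate block and leaving out each library. Plots used matplotlib 3.10.9.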

Additional observations from a re-analysis of the deposited data

How the results depend on the processing

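Over the 5 comparisons, alternatives to the fit of 10 libraries kept the count of called genes among the 74 within 1.5 times in 88 cases and moved it in 9. For Mdivi-1 at 96 h, 1 gene passed with a floor of 5 TPM, and leaving out 1 library gave 0 to 5 genes, with 1 without LPS library 1 and 5 without LPS library 3. No share over all genes is given for these fits. For time, all 12 libraries gave 0 genes without and 0 with Mdivi-1, rescaling 45 and 45, and background subtraction 43 and 40. Median-of-ratios scaling gave 53 and 57, of which 7 and 7 were higher at 96 h. All these counts take both directions together, so that scaling was taken as keeping the count. A count of 0 in both fits was also taken as kept. Among the genes named for time, the change turned positive without Mdivi-1 for Atp5j (0.38 with all 12 libraries, 1.73 after background subtraction, 1.33 with median-of-ratios scaling, 1.28 rescaled) and Uqcrb (0.69, 2.09, 1.48 and 1.41). With Mdivi-1 it did so for Uqcrb (0.79, 1.90, 1.28 and 1.26) and Ndufs4 (0.64, 1.76, 1.29 and 1.27). Over the 74, in the same order of settings, 5, 19, 16 and 15 genes lay above 0 without Mdivi-1, with Ndufs4 (0.14, 1.52, 1.13 and 1.07), Cox7b (0.08, 1.31, 0.74 and 0.67) and Cox6c (0.013, 1.466, 1.096 and 1.038) positive under all 4 as well. With Mdivi-1 5, 21, 14 and 14 did, with Atp5j (0.46, 1.59, 1.17 and 1.16), Uqcrq (0.48, 1.39, 0.85 and 0.84) and Ndufa12 (0.12, 1.01, 0.52 and 0.50). The cause was not tested. Libraries with the same number correlated at -0.11, -0.02 and -0.24 between the groups at 96 h (departures from group means over genes). Those with different numbers correlated at -0.10 to 0.18. With 3 libraries per group these values cannot decide whether the numbers pair them. The 24 h libraries numbered 3 correlated at 0.98, and those numbered 1 and 2 at 0.96 to 0.97 for same and different numbers. With the replicate block, the counts were 0, 0, 0, 74 and 74, as without it, while the counts over all genes for Mdivi-1 fell from 58, 28 and 24 to 9, 5 and 6. As depth is unknown, no value near 1 TPM at 96 h can be given a counting error.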
